A study of Mus musculus with 18 samples.

Results

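The transcriptional response to all-trans retinoic acid (tRA) added on top of a retinoic acid receptor (RAR) antagonist was compared with the antagonist alone in mIMCD-3 cells, an established epithelial line from the inner medullary collecting duct of the mouse kidney. Its members are 6 of the 18 arrays of the series, chosen by their titles and paired by biological replicate number. The 3 arrays named AGN193109 come from cells given 1 µM AGN193109, and the 3 named AGN193109+tRA from cells given 1 µM AGN193109 with 0.2 µM tRA. A vehicle group of 3 arrays from the same experiment (0.1% ethanol and 0.1% DMSO) gives the level without either agent, and treatment lasted 24 h in every group. A second experiment of 9 arrays used vehicle, 25 µM DEAB, which inhibits the aldehyde dehydrogenases that make tRA, and 25 µM DEAB with 0.01 µM tRA. All groups share the same unmodified cell line, so the model holds 1 kind of cultured cell and none of the other cells of a kidney. Each biological replicate was an independent experiment with all 3 treatments. The antagonist is spelled AGN193110 or AGN193099 in some label fields, and AGN193109 follows the titles.

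tRA enters the cell nucleus and activates RARs, which sit on DNA together with retinoid X receptors. Their classical binding element is a direct repeat of the hexamer AGGTCA or a close variant. An antagonist such as AGN193109 occupies the ligand pocket of all RAR subtypes, so the level with antagonist alone shows a gene with receptor activity blocked, and added agonist competes with it. In the collecting duct, principal cells control water and sodium transport and intercalated cells control acid and base.

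Few transcripts passed the test for added tRA, and most were higher with it, while the number and the split depended on the fit. Levels were log2 values of transcript clusters, the units in which the array groups its probes along a gene, and 23410 clusters with a gene symbol were tested with limma in 1 fit of the 9 arrays with replicate number as a block. At an adjusted p under 0.05, 18 clusters were higher with AGN193109+tRA than with AGN193109 (0.0769% of those tested) and 1 was lower (0.00427%), which together stand for 18 genes. With all 18 arrays in 1 fit the counts were 80 higher and 60 lower, and with limma's trend option 34 and 8. They fell to 4 and 0 with only the 6 compared arrays and the block, and to 5 and 0 without the block. When clusters without a symbol were included, they were 6 and 0. Quantile normalization again gave 22 higher and 4 lower. The share of higher calls was 94.7% in the main fit and 84.6% after this rescaling, and it was smaller in the fit of 18 arrays. The called genes included a chemokine (Ppbp), a natriuretic peptide receptor (Npr3), carboxypeptidases (Cpm and Cpn1), adhesion proteins (Itga2 and Tns1) and signaling ligands (Jag1, Wnt9a and Il34). Among all clusters with an unadjusted p under 0.05, 370 were higher (1.58%) and 848 lower (3.62%). That excess of lower values depended on the scaling, since the counts were 568 and 662 after quantile normalization and 501 and 594 after subtraction of array medians. All 19 called clusters moved the same way in 3 of 3 pairs, against 6.99% of all clusters higher and 18.2% lower in every pair. The values of the compared groups did not overlap in 15 of the 19, while over all clusters 1.28% were higher and 2.87% lower without overlap. The 19 were picked by the blocked fit of these same arrays, so both counts describe the calls and are no separate support for them. A permutation over the 3 pairs cannot give an exact two-sided p below 0.25, so the p-values rest on the model. Whether short windows at the transcription starts of these genes hold the classical element is described next, before the values.

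**Figure D1:**
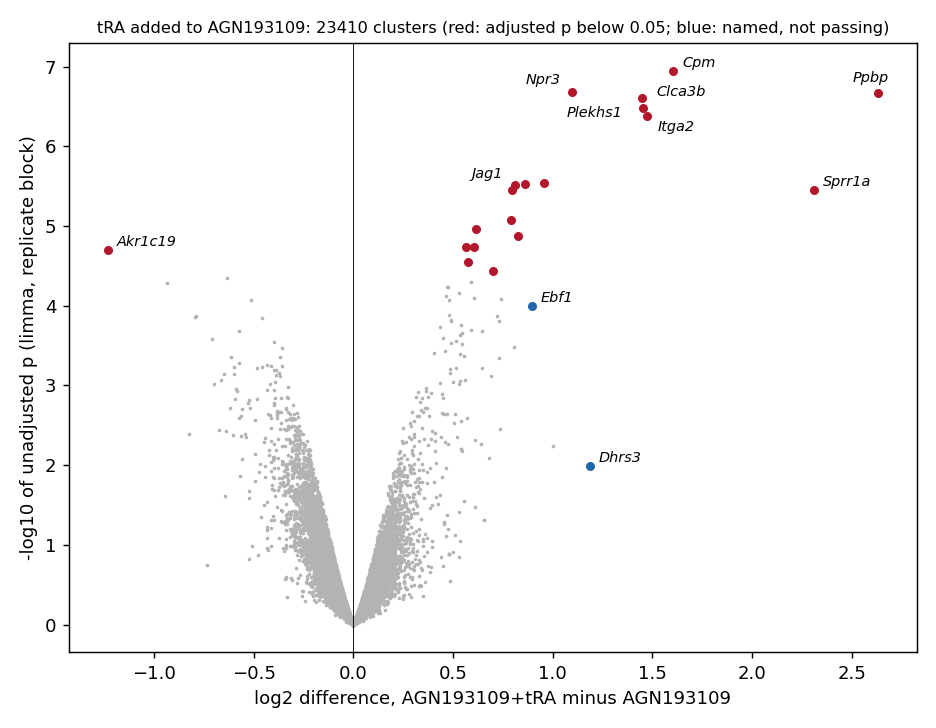
Each point is one of the 23410 tested clusters, with the log2 difference between AGN193109+tRA and AGN193109 on the x axis and -log10 of the unadjusted p on the y axis. The 18 red points right of 0 are the clusters called higher, the red point left of 0 is Akr1c19, and Ebf1 and Dhrs3 in blue had large differences without passing the adjusted threshold.

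Of the 18 called genes, 15 had a promoter window in the RefSeq table of GRCm38.p6 (16 windows of 300 bases, from 250 bases before to 50 after the transcription start), and Sorcs2, Psca and Il34 had none. The hexamer AGGTCA was searched on both strands, together with AGTTCA as a variant, GGGTCA as another and GGTTCA as the last. At least 1 of the 4 was found in 9 of the 16 windows, against 43.7% of all 32851 windows, and AGGTCA itself in 4 of 16, against 16.3%. A direct repeat of any of these hexamers spaced by 5 bases was found in 1 of the 16 windows, that of Ppbp, while 0.0974% of all windows held such a repeat. Repeats spaced by 1 or 2 bases were found in 0 of 16, and in 0.222% and 0.268% of all windows. A match describes letters only and is no evidence of a receptor at that place. Shown here are the windows of Ppbp, which had the largest difference and the repeat, of Cpm, which had the smallest p, and of Clca3b, whose arrays with tRA all lay above vehicle. Capitals mark each hexamer on either strand, in sequence written 5′ to 3′ along the gene's own strand.
Ppbp (GRCm38.p6 chr5:90768268-90768567, plus strand): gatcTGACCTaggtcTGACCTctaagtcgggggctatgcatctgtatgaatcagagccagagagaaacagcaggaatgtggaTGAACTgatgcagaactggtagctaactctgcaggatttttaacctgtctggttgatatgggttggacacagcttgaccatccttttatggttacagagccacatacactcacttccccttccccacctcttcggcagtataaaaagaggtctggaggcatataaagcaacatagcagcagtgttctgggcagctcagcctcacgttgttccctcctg
Cpm (GRCm38.p6 chr10:117629250-117629549, plus strand): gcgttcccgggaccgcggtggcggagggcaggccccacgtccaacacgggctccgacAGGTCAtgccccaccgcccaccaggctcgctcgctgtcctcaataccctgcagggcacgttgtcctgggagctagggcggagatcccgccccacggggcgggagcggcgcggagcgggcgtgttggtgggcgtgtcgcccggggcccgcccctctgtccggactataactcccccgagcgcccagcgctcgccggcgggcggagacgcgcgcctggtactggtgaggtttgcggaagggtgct
Clca3b (GRCm38.p6 chr3:144849253-144849552, minus strand): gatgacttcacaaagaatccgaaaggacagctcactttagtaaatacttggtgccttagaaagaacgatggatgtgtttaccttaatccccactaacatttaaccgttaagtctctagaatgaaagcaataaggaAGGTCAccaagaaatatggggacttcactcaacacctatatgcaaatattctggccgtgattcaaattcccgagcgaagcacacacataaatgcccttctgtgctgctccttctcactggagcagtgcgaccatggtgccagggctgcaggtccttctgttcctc
The repeat of Ppbp spans positions -246 to -230 from the transcription start and reads AGGTCAgacctAGGTCA on the strand opposite to the gene (chr5:90768272-90768288 of GRCm38.p6). A further AGTTCA lies at -168 on the same strand. The window of Ppbp also holds TATAAA at -30 and at -8. TATAAA was searched in the gene's direction only and found in 3 of the 16 windows (Gstm1, Ppbp and Sprr1a) and in 8.32% of all. Cpm and Clca3b each hold 1 AGGTCA in the gene's direction, at -193 and -115. In the window of Plekhs1 a GGTTCA lies at -54. No hexamer of the 4 was found in the windows of Npr3, Itga2, Lcn2, Jag1, Cpn1 and Akr1c19, nor in 1 window of Gstm1. This says only that these letters are not in those 300 bases.

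Ppbp encodes a CXC chemokine precursor known from platelets that attracts neutrophils. Its level in replicates 1, 2 and 3 was 7.44, 7.03 and 7.78 with AGN193109, 9.70, 10.25 and 10.20 with AGN193109+tRA, and 10.41, 10.68 and 10.91 with vehicle. Every array with tRA was above every array with antagonist alone and below every vehicle array. With limma the difference in log2 level was 2.63 (SE 0.16, n = 3 pairs, adjusted p = 0.00145), a 6.20-fold increase, and the pairs gave 2.26, 3.22 and 2.42. The product Il34, a ligand of the colony stimulating factor 1 receptor, rose by 0.56 (SE 0.06, adjusted p = 0.0268), with pairs of 0.57, 0.57 and 0.55. Among 33 measured chemokines and other secreted inflammatory genes, those 2 were called higher and 0 lower, against 0.0769% and 0.00427% of all clusters. The list median was 0.02 against -0.01 over all clusters tested. This list and those below were chosen with earlier results of these data known, so their counts are not evidence about a family. No other member of the CXC family on the list passed the adjusted threshold. Cxcl10, induced by interferons, differed by 0.35 (95% interval 0.10 to 0.60) and its relative Cxcl11 by 0.29 (0.09 to 0.49), each higher in 3 of 3 pairs. Pf4, another platelet chemokine, differed by -0.05 (95% interval -0.24 to 0.14), Cxcl1 by 0.11 (-0.11 to 0.33) and Cxcl5 by 0.18 (-0.02 to 0.39).

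Npr3 encodes the clearance receptor that binds natriuretic peptides and takes them into the cell. Its level was 9.71, 9.51 and 9.43 with AGN193109, 10.74, 10.57 and 10.62 with AGN193109+tRA, and 10.87, 10.56 and 10.65 with vehicle. The arrays with tRA lay among the vehicle arrays and above all with antagonist alone. The increase was 1.10 (SE 0.07, adjusted p = 0.00145), or 2.14-fold, and of the 18 higher clusters it had, with Ppbp, Cpm and Clca3b, the smallest adjusted p. In the natriuretic peptide system, 1 of 11 measured genes was called higher and 0 lower, against 0.0769% and 0.00427% of all clusters. The receptors with guanylyl cyclase activity differed by 0.08 (Npr1, 95% interval -0.07 to 0.24) and by less than 0.01 in size (Npr2, -0.18 to 0.18).

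Jag1, a ligand of Notch receptors, rose by 0.81 (SE 0.07, adjusted p = 0.00752). Its values were 10.33, 10.01 and 9.92 with AGN193109, 11.16, 10.74 and 10.80 with AGN193109+tRA, and 10.77, 10.59 and 10.49 with vehicle, so that in each replicate number the array with tRA was the highest of the 3. Wnt9a, a Wnt ligand, rose by 0.58 (SE 0.07, adjusted p = 0.0364), with pairs of 0.55, 0.54 and 0.64. Nrg1, a ligand of the ERBB receptors, had a difference of 0.48 and an adjusted p of 0.0563, just outside the threshold.

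Cpm encodes carboxypeptidase M, a surface enzyme that removes terminal arginine and lysine from peptides. Cpm stood at 9.01, 8.01 and 9.34 with AGN193109, 10.61, 9.81 and 10.76 with AGN193109+tRA, and 11.22, 10.56 and 11.68 with vehicle. Replicate 2 was the lowest of its group in all 3 treatments, while the difference within pairs was similar, at 1.60, 1.80 and 1.42. The increase was 1.60 (SE 0.09, adjusted p = 0.00145), or 3.04-fold. Without the block, which leaves this replicate shift in the error, the adjusted p of Cpm was 1. Cpn1, the catalytic subunit of the plasma carboxypeptidase N, rose by 0.70 (SE 0.09, adjusted p = 0.0455) and was the called cluster with the largest adjusted p.

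Clca3b belongs to a family of secreted regulators of calcium-activated chloride channels. Values of 7.42, 7.29 and 7.70 with AGN193109 contrasted with 8.94, 8.87 and 8.93 with AGN193109+tRA and 8.37, 8.42 and 8.77 with vehicle. All 3 arrays with tRA were above all 3 vehicle arrays. The increase over AGN193109 was 1.45 (SE 0.09, adjusted p = 0.00145), or 2.72-fold. Of 16 measured chloride channel and accessory genes, 1 was called higher and 0 lower, against 0.0769% and 0.00427% of all clusters. The family members Clca1, Clca2, Clca3a1, Clca3a2, Clca4a and Clca4b had differences from -0.13 to 0.14. Plekhs1, whose product has a pleckstrin homology domain, was at 6.78, 6.97 and 6.85 with AGN193109, 8.30, 8.49 and 8.16 with AGN193109+tRA, and 8.83, 9.36 and 8.78 with vehicle. Its increase was 1.45 (SE 0.10, adjusted p = 0.00153), or 2.73-fold, and the arrays with tRA lay between the other groups without touching either.

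**Figure D2:**
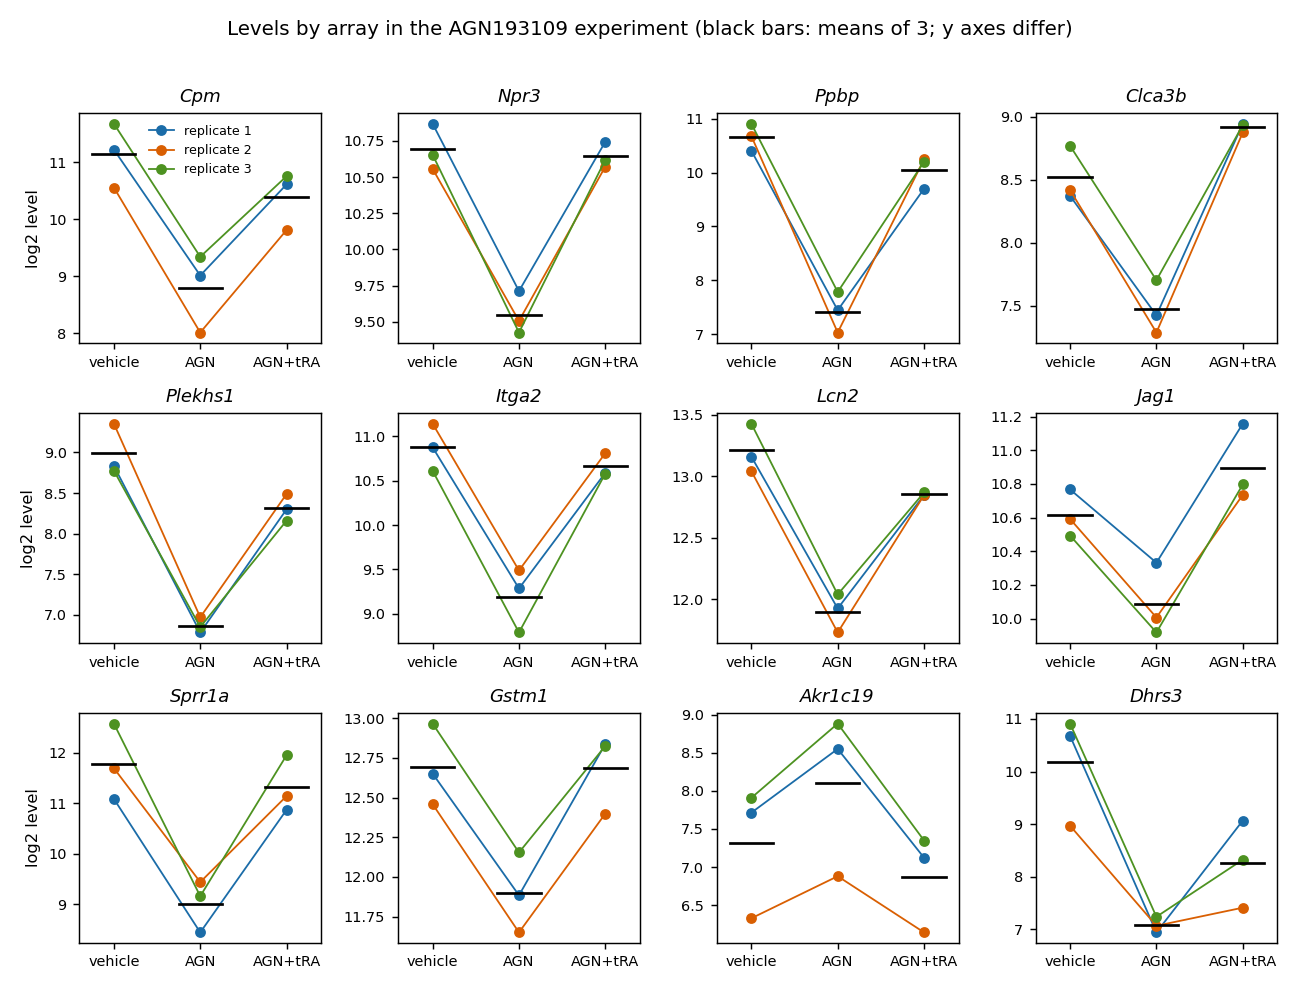
Log2 levels of 12 genes in the 9 arrays of the AGN193109 experiment, with arrays of the same replicate number joined by a line, black bars for group means and a separate y axis for each gene. In 10 panels the lines form a V with every AGN193109+tRA array above its AGN193109 partner, Akr1c19 is the reverse, and the lines of Dhrs3 part after tRA, ending at 9.07, 7.41 and 8.33.

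Itga2 encodes the chain that gives integrin its affinity for collagen. Its level was 9.29, 9.49 and 8.79 with AGN193109, 10.59, 10.81 and 10.58 with AGN193109+tRA, and 10.88, 11.14 and 10.61 with vehicle, with no overlap between the antagonist arrays and the others. The increase was 1.47 (SE 0.10, adjusted p = 0.00164), or 2.77-fold. Tns1 encodes tensin, which links integrins to actin, and the array reads it with 6 clusters. Called higher were 2 of them, by 0.80 (SE 0.07, adjusted p = 0.00752) and 0.83 (SE 0.09, adjusted p = 0.0222). The other 4 had differences of 0.74, 0.72, 0.48 and -0.02. In the brighter called cluster the values were 10.21, 8.98 and 9.79 with AGN193109 and 11.02, 9.69 and 10.67 with AGN193109+tRA, so the groups overlapped and the pairs (0.81, 0.70 and 0.88) did not. Among 27 measured integrin, laminin and adhesion genes, 2 were called higher and 0 lower, against 0.0769% and 0.00427% of all clusters. In 3 of 3 pairs, 9 were higher and 8 lower, against 6.99% and 18.2% of all clusters. Itgb1, the partner chain of Itga2, differed by -0.02 (95% interval -0.21 to 0.18).

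Lcn2 encodes a secreted carrier of iron-binding siderophores and is a marker of tubular injury. It was at 11.92, 11.73 and 12.04 with AGN193109 and at 12.85, 12.85 and 12.87 with AGN193109+tRA, while vehicle had 13.16, 13.04 and 13.43. The increase was 0.96 (SE 0.08, adjusted p = 0.00752). It was the only called gene of 18 measured injury and acute phase genes, against 0.0769% of all clusters called higher and 0.00427% lower. Havcr1, another injury marker on that list, differed by -0.08 (95% interval -0.30 to 0.14). Sprr1a encodes a precursor of the cornified envelope. The values of Sprr1a were 8.44, 9.44 and 9.16 with AGN193109, 10.87, 11.14 and 11.95 with AGN193109+tRA, and 11.09, 11.69 and 12.58 with vehicle. Its increase of 2.31 (SE 0.21, adjusted p = 0.00752), or 4.96-fold, was second to that of Ppbp, and its pairs spread from 1.71 to 2.80. Of 31 measured squamous and cornified envelope genes it was the sole call, against the same shares of all clusters, and the list median was -0.04. In 3 of 3 pairs, 14 of the 31 were lower, against 18.2% of all clusters. Psca, a surface protein anchored by a lipid, rose by 0.61 (SE 0.06, adjusted p = 0.0196).

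Gstm1 encodes a glutathione transferase, with 11.88, 11.65 and 12.15 with AGN193109, 12.84, 12.40 and 12.82 with AGN193109+tRA, and 12.65, 12.46 and 12.97 with vehicle. It rose by 0.79 (SE 0.08, adjusted p = 0.0166). In the list of 23 NRF2 and glutathione genes it was the only call, against 0.0769% of all clusters called higher and 0.00427% lower. In 3 of 3 pairs, 8 were higher and 4 lower, against 6.99% and 18.2% of all clusters. Gsr, which reduces glutathione, and Gstm2 had differences of 0.60 and 0.48, both with an adjusted p of 0.0661. Gstm1 and Gstm2 are close paralogs, and probes could take up transcripts of both. Aadat, an aminotransferase of lysine and kynurenine breakdown, rose by 0.60 (SE 0.07, adjusted p = 0.0268). Its cluster was dim, with a mean level at the 28.8 percentile of all clusters. Akr1c19, an aldo-keto reductase, was the only cluster called lower. Its values were 8.55, 6.88 and 8.88 with AGN193109, 7.12, 6.14 and 7.35 with AGN193109+tRA, and 7.71, 6.33 and 7.91 with vehicle. Replicate 2 was low in all 3 groups and had the smallest change, with pairs of -1.43, -0.74 and -1.53. The fit gave a difference of -1.23 (SE 0.14, adjusted p = 0.0272). Sorcs2, a sorting receptor of the sortilin family, rose by 0.86 (SE 0.08, adjusted p = 0.00752), with the evenest pairs of the genes with a difference above 0.8, at 0.86, 0.83 and 0.90.

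Most of these calls needed the pairing by replicate number. Without it, 5 clusters were called higher and 0 lower (0.0214% of those tested). The calls of Ppbp, Clca3b, Npr3, Plekhs1 and Lcn2 were kept, with adjusted p-values of 0.00805, 0.00975, 0.0133, 0.0194 and 0.0412. Itga2 and Il34 then had adjusted p-values of 0.0612 and 0.0618, Jag1 and Sprr1a 0.392, Aadat 0.461, Gstm1 0.985, and Cpm, Sorcs2, Psca, Wnt9a, Cpn1, Akr1c19 and both clusters of Tns1 had 1. Left out in turn, no 1 of the 9 arrays ended the calls of Cpm, Npr3, Ppbp, Clca3b, Plekhs1 and Itga2. With only the 6 compared arrays and the block, however, Ppbp and Itga2 lost their call, and Cpm, Npr3, Clca3b and Plekhs1 kept theirs. The other 13 called clusters lost their call without AGN193109 replicate 1 and also without AGN193109+tRA replicate 1. With all 3 arrays of replicate 1 left out, 0 clusters were called by limma, although 289 were higher and 443 lower at an unadjusted p under 0.05.

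The called genes were also set against vehicle. AGN193109 alone had placed the 18 higher clusters at -3.25 to -0.44 from vehicle on the log2 scale, values that share the antagonist arrays with the comparison above. With AGN193109+tRA, 15 of the 18 had a mean below vehicle and 3 a mean above it. Ppbp remained at -0.62 from vehicle, Cpm at -0.76, Plekhs1 at -0.67 and Sorcs2 at -0.55. Npr3 and Gstm1 were at -0.05 and less than 0.01 below, with standard errors of 0.07 and 0.08. Clca3b was 0.40 above vehicle, Jag1 0.28 and Aadat 0.16. Over all clusters, AGN193109+tRA against vehicle gave 0 called higher and 1 called lower (0.00427% of 23410), with 1181 (5.04%) at an unadjusted p under 0.05. That call was the brighter cluster of Tns1, at -0.85 (SE 0.07, adjusted p = 0.0494 from limma). Against vehicle, 0 clusters were called when the block was dropped and 0 when the fit held just the 6 arrays. Of the 18 higher clusters, 10 lay below vehicle and 3 above it at an unadjusted p under 0.05, and the brighter Tns1 cluster alone passed the adjusted threshold.

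**Figure D3:**
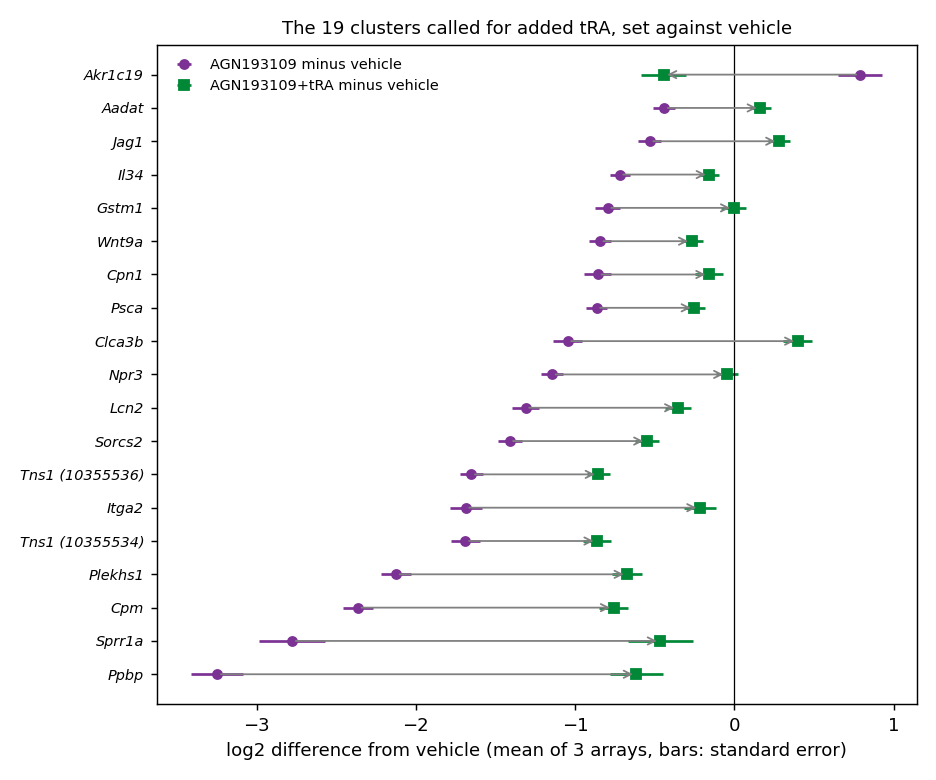
Differences from vehicle on the log2 scale for the 19 clusters called for added tRA, with circles for AGN193109, squares for AGN193109+tRA, bars for the standard error and an arrow from one to the other. The arrows of Clca3b, Jag1 and Aadat end to the right of vehicle, that of Akr1c19 runs leftwards, and the squares of Ppbp, Cpm, Plekhs1 and Tns1 stay between -0.86 and -0.62.

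The retinoid pathway itself gave no calls. In each of the lists of retinoid transport and storage (10 measured), retinoid metabolism (28 measured) and retinoid receptors and cofactors (20 measured), 0 genes were called in either direction, with medians of -0.02, less than 0.01 and less than 0.01 in size. At an unadjusted p under 0.05, these lists held 0, 6 and 0 genes. The 6 were 2 higher and 4 lower of 28, against 1.58% higher and 3.62% lower of all clusters. Since 0.0769% of all clusters were called higher and 0.00427% lower, 0 calls in lists of this size say little about the pathway. Rara, Rarb and Rarg, the tRA receptors, each differed by 0.02 or 0.03, with 95% intervals that lay between -0.19 and 0.25. Among 33 measured genes known to respond to tRA in other tissues, 0 were called. In 3 of 3 pairs 5 were higher, against 6.99% of all clusters. Cyp26a1, which breaks down tRA and is a classical target, differed by 0.06 (95% interval -0.08 to 0.21), and its mean level was at the 21.2 percentile of all clusters. Aldh1a2, which makes tRA from retinaldehyde, differed by 0.19 (95% interval 0.03 to 0.35) and Aldh1a3, with the same activity, by -0.29 (-0.47 to -0.11), neither of them past the adjusted threshold.

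Dhrs3, which reduces retinaldehyde back to retinol, differed widely between pairs. Its level was 6.94, 7.07 and 7.24 with AGN193109, 9.07, 7.41 and 8.33 with AGN193109+tRA, and 10.68, 8.97 and 10.91 with vehicle. Every array with tRA was above all with antagonist alone, but by 2.13, 0.34 and 1.09 within pairs. The difference was 1.18 (SE 0.36, 95% interval 0.37 to 2.00, adjusted p = 0.667), which did not pass. By RT-qPCR on the same RNA samples, the paper reported Dhrs3 as significantly higher with AGN193109+tRA than with AGN193109, though still below vehicle. Replicate 2 was the lowest both with vehicle and with AGN193109+tRA.

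**Figure D4:**
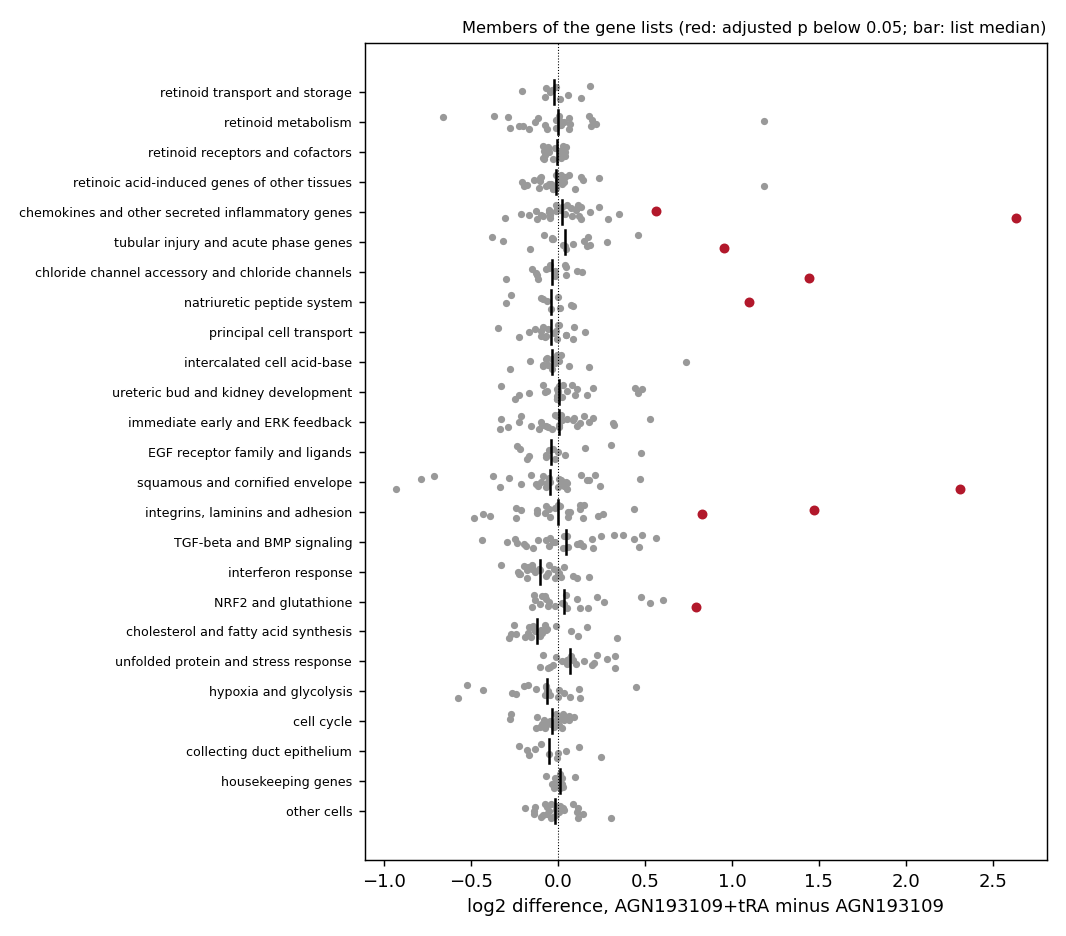
Log2 differences between AGN193109+tRA and AGN193109 for the measured members of 25 gene lists, 1 point per gene, with a bar at the list median and calls in red. The retinoid lists hold no red point, and Ppbp (2.63) and Sprr1a (2.31) stand at the far right of lists whose medians are 0.02 and -0.04.

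The remaining lists held no call, against 0.0769% of all clusters called higher and 0.00427% called lower. Over all clusters, 6.99% were higher and 18.2% lower in 3 of 3 pairs. List medians and pair counts were taken at the deposited scaling only, and the excess of lower values over all clusters depended on the scaling. Of 20 principal cell and 17 intercalated cell transport genes, 0 were called, with medians of -0.04 and -0.03. Car2, a carbonic anhydrase of intercalated cells, had pairs of 1.25, 0.80 and 0.16 and an adjusted p of 0.473. Hsd11b2, which protects the mineralocorticoid receptor from glucocorticoids, differed by -0.35 (adjusted p = 0.473). Among 27 ureteric bud and kidney development genes 0 were called, and Bmp7, a BMP ligand, had 0.49 (adjusted p = 0.218) with 3 of 3 pairs higher. Foxa1, a forkhead transcription factor, differed by 0.02 (95% interval -0.14 to 0.18). TGF-beta and BMP genes (30 measured) had 12 members higher and 7 lower in 3 of 3 pairs, and Smad3, which carries TGF-beta signals, had 0.47 with an adjusted p of 0.0661. The immediate early and ERK feedback list (31 measured) had a median of 0.01, with 6 members higher and 6 lower in 3 of 3 pairs. It held Dusp1, a phosphatase, at 0.53 (adjusted p = 0.0644), and Nr4a1 and Etv1 both at -0.33. Interferon response genes (27 measured) had a median of -0.10 and 11 members lower in 3 of 3 pairs, and cholesterol and fatty acid synthesis genes (22 measured) a median of -0.12 and 10 lower. Genes of the unfolded protein response (20 measured) had a median of 0.07 with 9 higher in 3 of 3 pairs, and Hspa5, its chaperone, was at 0.32 (adjusted p = 0.649). Neither the EGF receptor family (14 measured), the hypoxia and glycolysis genes (22 measured) nor the cell cycle genes (27 measured) held a call, with medians of -0.04, -0.07 and -0.04.

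The study's own short-lists were chosen on these arrays and so are not independent evidence of a direction. Of its 94 genes suppressed by both inhibitors, 15 were called higher here, 81 had an unadjusted p under 0.05, and the median was 0.45. Its induced genes (30 measured) gave 0 calls, with 26 lower at an unadjusted p under 0.05 and a median of -0.33. Of 253 measured genes that the study listed for AGN193109 only, Psca and Aadat were called higher and Akr1c19 lower. The 1 remaining called cluster, the brighter of Tns1, was in none of them. Anxa8, an annexin of the induced list, had values of 8.59, 8.41 and 9.08 with AGN193109 and 7.53, 7.83 and 7.93 with AGN193109+tRA. Its difference of -0.93 (SE 0.12, adjusted p = 0.055) lay just outside the threshold although the groups did not overlap. Other falls that did not pass were those of Ahnak2 (-0.79, adjusted p = 0.0922), Casp14 (-0.79, 0.0922) and Gsdma (-0.71, 0.129), the latter 2 known from keratinized epithelium. Ebf1, a transcription factor of the suppressed list, had pairs of 0.94, 1.19 and 0.55, a difference of 0.89 and an adjusted p of 0.0751.

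tRA added to the other inhibitor moved the called genes the same way. With DEAB and a dose of 0.01 µM tRA, against 0.2 µM here, all 19 clusters had a difference of the same sign in 3 of 3 pairs. The share of all clusters with 1 sign in 3 of 3 DEAB pairs was not counted. With AGN193109 it was 6.99% higher and 18.2% lower. By another measure, an adjusted p under 0.05 from limma, 184 clusters were called higher and 167 lower with DEAB (0.786% and 0.713% of 23410). Ppbp had 3.51 with DEAB against 2.63 with AGN193109, Sprr1a 3.55 against 2.31, and Npr3 1.60 against 1.10. Cpm had 1.61 with DEAB and 1.60 with AGN193109, and Akr1c19 -1.30 and -1.23. The 2 experiments share no array, and the difference between their tRA effects was tested over all 18 arrays. In this interaction 0 clusters were called by limma (0% of 23410), with 219 higher and 588 lower at an unadjusted p under 0.05 (3.45% together). These unadjusted counts were 360 and 505 after quantile normalization and 326 and 396 after subtraction of array medians. Among the 19 clusters, 9 had a smaller tRA effect with AGN193109 and 2 a larger one at that unadjusted level. The interaction was -0.01 for Cpm (95% interval -0.24 to 0.23), -0.08 for Lcn2 (-0.39 to 0.23) and -0.50 for Npr3 (-0.68 to -0.33, adjusted p = 0.167). The inhibitor, the tRA dose and the experiment differ together and cannot be told apart.

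The 2 smallest p-values of the interaction were those of Stra6 and Muc20, which were not called with AGN193109, and the called Npr3 and the brighter Tns1 cluster (interaction -0.48, adjusted p = 0.167) were among the next. Stra6, a membrane receptor that takes up retinol, was at 8.10, 8.15 and 9.05 with AGN193109 and at 8.19, 8.22 and 9.28 with AGN193109+tRA. Its difference was 0.13 (95% interval -0.03 to 0.28) with AGN193109 and 0.93 with DEAB, with an interaction of -0.80 (-1.02 to -0.58, adjusted p = 0.1). Muc20, a membrane mucin, had 0.18 (-0.04 to 0.40) with AGN193109 and 1.24 with DEAB, with an interaction of -1.06 (-1.39 to -0.74, adjusted p = 0.139). For Dhrs3, described above for its spread between pairs, the values were 1.18 and 3.35, with an interaction of -2.16 (-3.35 to -0.97, adjusted p = 0.994).

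**Figure D5:**
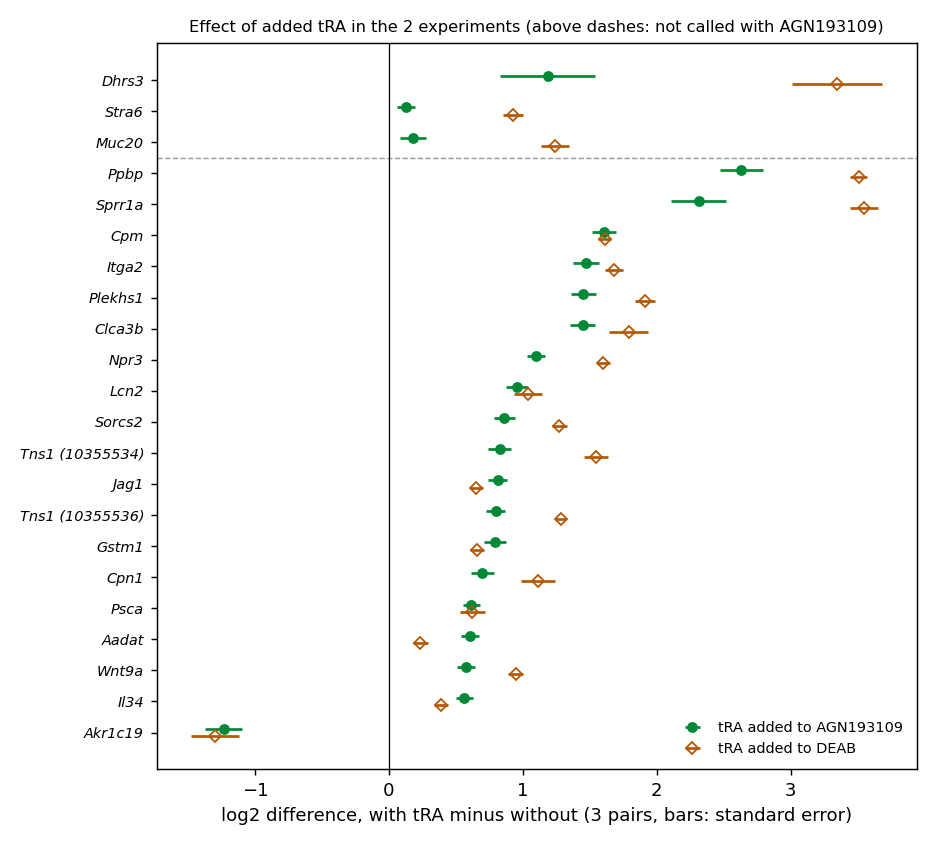
Log2 differences with tRA minus without for the 19 called clusters and, above the dashed line, Muc20, Stra6 and Dhrs3, with filled circles for 0.2 µM tRA added to AGN193109, open diamonds for 0.01 µM tRA added to DEAB and bars for the standard error. Circles and diamonds lie on the same side of 0 throughout, close together for Cpm and Psca and farthest apart for Dhrs3 (1.18 and 3.35).

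Markers of the cells were read in the same fit. Of 11 collecting duct epithelium markers 0 were called, and their summed level was 15.11 to 15.20 with AGN193109 and 15.14 to 15.32 with AGN193109+tRA on the log2 scale. The epithelial markers Krt8, Krt18, Krt7 and Cdh1 were between the 94.7 and 99 percentiles of all clusters, while the water channel Aqp2 was at the 50.1 percentile and Aqp3 at 38.3. Markers of other cells (26 measured, 0 called) summed to 11.78 to 11.96 and 11.76 to 11.94. Of these 26, 10 were below the 30th percentile and 3 above the median of all clusters, against 1 and 7 of the 11 duct markers. Pf4 and Emcn of platelets and endothelium were at the 5.5 and 5.7 percentiles, but Acta2 and Cubn of the same list at 47.2 and 46.1. Housekeeping genes (14 measured, 0 called) summed to 17.05 to 17.10 and 17.02 to 17.13. Array medians spanned 7.23 to 7.33, and fewer cells of a kind and less RNA per cell cannot be told apart on such arrays.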

How the data were processed

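Affymetrix Mouse Gene 1.0 ST arrays measured RNA of mIMCD-3 cells, and the authors deposited log2 values made with RMA in Affymetrix Expression Console, with no version given in the sources. RMA corrects background, makes the probe values of the arrays share 1 distribution and then summarizes the probes of a cluster. Shifts common to most transcripts are thereby reduced. They were not fully absent from the cluster values, whose array medians spanned 7.23 to 7.33 in the AGN193109 experiment. Of 35556 clusters, 23410 have a gene symbol in the platform annotation (21789 with 1 symbol, 1621 with several) and were tested. Values were fitted with limma 3.58.1 in R 4.3.3 as group means plus replicate number over the 9 arrays of the experiment (4 residual degrees of freedom), with Benjamini-Hochberg adjustment. The block was used because each number is an independent experiment with all 3 treatments, and residuals of same-numbered arrays correlated by 0.198 to 0.645 in all 9 pairs, against -0.575 to 0.205 for different numbers. Precision is limited by the 3 arrays per group, with a median SE of 0.0849 for a log2 difference. The interaction used all 18 arrays with experiment and replicate as a block.

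The comparison, its genes and its lists were chosen with earlier results of these data known. Named were the called clusters, the 10 largest rises and 10 largest falls with an unadjusted p under 0.01 and 1 sign in all pairs, genes the paper names, and up to 4 genes of smallest p in each list, while further list members (such as Rara, Cyp26a1, Pf4 and Itgb1) were picked for their role after values were seen. A gene with several clusters was read from that in the paper's short-list, otherwise from the brightest. Alternatives were no block, 6 or 18 arrays, quantile normalization again, array medians subtracted, omission of clusters below the 30th percentile of level, inclusion of all clusters, limma's trend and robust options, and arrays left out. Scripts were tested on simulated data. Plots used matplotlib (version 3.10.9) under Python (version 3.11.15).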

Additional observations from a re-analysis of the deposited data

How the results depend on the processing

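For tRA added to AGN193109, 18 clusters were called higher and 1 lower. No replicate block gave 5 and 0, only the 6 arrays compared 4 and 0, all 18 arrays in 1 fit 80 and 60, quantile normalization again 22 and 4, subtraction of array medians 23 and 2, dim clusters left out 25 and 4, inclusion of clusters without a symbol 6 and 0, the trend option 34 and 8, and the robust option 17 and 1. All 19 remained called with 18 arrays, with both other scalings and with the trend option. Npr3, Clca3b and Plekhs1 were kept in all 9 of these settings. Leaving out 1 array gave 6 to 14 higher and 0 to 1 lower. The smallest counts, 6 higher and 0 lower, came without AGN193109 replicate 1 or AGN193109+tRA replicate 1. Leaving out a replicate number gave 0 to 4 higher and 0 to 1 lower, with 0 called without replicate 1, 4 higher and 1 lower without replicate 2 and 3 higher without replicate 3. The cause was not tested, other than that these fits have fewer arrays. None of the 19 called differences changed sign in any alternative. For AGN193109+tRA against vehicle (0 higher, 1 lower), the lower calls were 0 without the replicate block, with 6 arrays, with quantile normalization, over all clusters and with the robust option, 3 without dim clusters, 6 with the trend option and 0 to 4 with an array or number left out, of which the 4 came without AGN193109 replicate 3. With 18 arrays they were 57, with 6 higher. The interaction had 0 calls in every alternative, apart from 1 lower without AGN193109 replicate 2 or DEAB+tRA replicate 2. Signal over background cannot be read from these values, so dim clusters are limited by probe brightness to an unknown extent.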

Other observations

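H1f1, which encodes a linker histone, was among the 10 largest rises without passing the test. Its level was 11.03, 10.04 and 12.26 with AGN193109, 12.09, 11.78 and 12.47 with AGN193109+tRA, and 10.55, 10.45 and 12.20 with vehicle. The difference with tRA was 1.00 (95% interval 0.38 to 1.62, adjusted p = 0.553 from limma), and with pairs of 1.06, 1.74 and 0.21 it was higher in 3 of 3. It stood 0.05 above vehicle with AGN193109 alone and 1.05 above with AGN193109+tRA, and tRA added to DEAB gave 0.15.

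Dhrs9, a retinol dehydrogenase, had the opposite sign from its relative Dhrs3. Its values were 8.23, 8.87 and 8.92 with AGN193109 and 7.37, 8.47 and 8.19 with AGN193109+tRA, a difference of -0.66 (adjusted p = 0.245), lower in 3 of 3 pairs, and with DEAB the difference was -0.39.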
